A study of Homo sapiens with 12 samples.

Results

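The Fas and TRAIL death receptor pathway was followed through 8 genes in Jurkat libraries labelled ZNF683, Mock, Dox+ and Dox-. They were the receptors FAS, TNFRSF10A and TNFRSF10B, the adaptor FADD, the initiator caspases CASP8 and CASP10, and the inhibitors CFLAR and XIAP. The genes were taken by symbol, and all 8 were found in each of the deposited tables, among 55514 genes in the ZNF683 and Mock table and 44389 genes in the doxycycline table. Jurkat, a line grown from a human T cell leukaemia, is widely used to study death receptor signalling. Hobit, the product of ZNF683, is a transcriptional regulator of tissue-resident and effector lymphocytes. The 12 libraries formed 4 groups of 3. ZNF683 libraries came from Jurkat cells whose genotype is given as doxycycline-induced ZNF683, and Mock libraries from Jurkat cells labelled Mock. Dox+ libraries came from Jurkat cells titled Hobit and grown with doxycycline, and Dox- libraries from cells with the same title grown without it. All cells were grown in RPMI with fetal calf serum, and doxycycline was used at 1 ug/uL as the labels write it. The labels do not say whether Mock cells received doxycycline, whether the line is 1 clone, or whether replicates were separate cultures. A p-value here therefore rests on the spread between these libraries, which may be technical. In the limma test used below, that spread is shared in part over genes of like mean level. In the doxycycline table as deposited it is shared in full, so a gene's own spread does not enter.

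Fas binds Fas ligand, and the receptors encoded by TNFRSF10A and TNFRSF10B, also called DR4 and DR5, bind TRAIL. A bound receptor gathers FADD, which recruits procaspase-8 and procaspase-10 into the death-inducing signalling complex, where the caspases activate each other and then the executioner caspases. The protein encoded by CFLAR, FLIP, resembles caspase-8 and limits its activation in that complex, while XIAP blocks executioner caspases further down. In T cells the route is known for activation-induced death and for the end of immune responses.

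CFLAR, CASP10 and CASP8 lie side by side on chromosome 2. In GENCODE v29 on GRCh38, CFLAR spans 201116104 to 201176687, CASP10 spans 201182881 to 201229406 and CASP8 spans 201233443 to 201287711, all on the plus strand. Gaps of 6193 and 4036 bases separate the neighbours, with 0 annotated genes in either gap. FAS lies on chromosome 10 (88990582 to 89015785), FADD on chromosome 11 (70203163 to 70207390) and XIAP on chromosome X (123859724 to 123913979).

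Hobit is a relative of Blimp-1, whose known binding sites contain GAAAG. That core and the GC box GGGCGG were searched on both strands in the 250 bases before the start listed by RefSeq (GRCh38.p14) for 5 matched genes, FAS, FADD, CASP8, CFLAR and XIAP. Before the gene start annotated in GENCODE v29, the windows held 34 bases for FAS, 117 for FADD, 230 for CASP8 and 250 for XIAP. The CFLAR window, 201118466 to 201118715, lies inside the GENCODE v29 span of that gene, so none of it comes before the gene start. GAAAG was absent from the windows of FAS, FADD, CASP8 and CFLAR and occurred 2 times in that of XIAP, while 49.2% of 27305 promoters held it. GGGCGG occurred 2 times in the FADD window and 1 time in each of the other 4 windows, and 42.3% of promoters held it. The upstream sequences of FADD and CASP8, which were low in a Dox- library described further on, and of XIAP, which was high in it, are shown 5′ to 3′ up to the first exon annotated in GENCODE v29. They were chosen by their values in that library. No window of TNFRSF10A or TNFRSF10B, also above the Dox+ mean in it, was searched. A link between motif and level was not tested. Capitals mark GAAAG or its complement CTTTC, and GGGCGG or its complement CCGCCC. The intervals are chr11:70203046-70203162, chr2:201233213-201233442 and chrX:123859458-123859707, all on the plus strand.
FADD: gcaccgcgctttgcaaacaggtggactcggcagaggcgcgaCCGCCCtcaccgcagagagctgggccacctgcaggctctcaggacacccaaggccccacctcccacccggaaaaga
CASP8: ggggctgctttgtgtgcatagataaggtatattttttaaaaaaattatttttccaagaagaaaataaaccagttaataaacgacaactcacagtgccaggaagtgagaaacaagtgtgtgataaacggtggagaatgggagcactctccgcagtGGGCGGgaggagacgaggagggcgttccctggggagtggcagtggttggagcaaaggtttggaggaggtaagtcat
XIAP: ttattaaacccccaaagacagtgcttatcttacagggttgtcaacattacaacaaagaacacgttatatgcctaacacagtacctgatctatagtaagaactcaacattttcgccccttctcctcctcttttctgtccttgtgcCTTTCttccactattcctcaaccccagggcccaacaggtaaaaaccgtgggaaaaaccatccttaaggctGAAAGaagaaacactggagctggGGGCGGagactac

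Values are TPM, an abundance per transcript length scaled to the same total in every library, and read depth is unknown. ZNF683 itself was low and its groups overlapped in the first comparison, at 1.17, 1.76 and 1.04 TPM in ZNF683 libraries against 0.715, 1.59 and 0.681 TPM in Mock libraries. It stood at 0.453, 0.774 and 0.571 TPM in Dox+ libraries against 0.115, 0.239 and 0.451 TPM in Dox- libraries, where the groups lay apart by a narrow margin. The gene was thus detected in every library, and the group names below are those of the labels. All 12 T cell markers examined were at or above 1 TPM in every library. Other lists were not silent. In each ZNF683 and Mock library, 2 of 4 B cell, 1 of 3 erythroid, 2 of 4 epithelial and 0 of 4 myeloid markers reached 1 TPM. The B cell sum there was 37.7 to 58.2 TPM as deposited. In each doxycycline library, 1 or 2 of the B cell markers and 1 or 2 of the epithelial markers reached 1 TPM. A noncoding RNA, AL135790.1, took 50.7% of the TPM of Dox- library 1, 12.8% of that of Dox- library 2 and between 4.94% and 10.5% in the other 10 libraries, and a transcript this abundant lowers every other TPM value beside it. Each comparison is therefore given as deposited and after median-of-ratios scaling. That scaling sets libraries level on the median of genes above 0 in every library, so the tested genes need not be level. The limma test, with Benjamini-Hochberg adjustment at 0.05, took log2(TPM + 1) of the genes that averaged at least 1 TPM in a table. Over all genes tested, the median log2 change was 0.03 for ZNF683 against Mock and 0.32 for Dox+ against Dox-, or 0.07 and 0.13 after scaling. As deposited, 3 genes were called higher and 2 lower in ZNF683 libraries, and 19 higher and 41 lower in Dox+ libraries. After scaling these counts were 4 and 3 for ZNF683, and 1 and 0 for Dox+.

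None of the 8 genes passed the test in either comparison. In ZNF683 against Mock, limma called 0 of the 7 genes tested, beside 0.0301% of all 16588 genes tested, and 0 of the 7 had an unadjusted p under 0.05, beside 13% of all genes. In Dox+ against Dox-, limma called 0 of 7, beside 0.396% of all 15148 genes tested, and 1 of the 7, FADD, had an unadjusted p under 0.05, beside 6.34% of all genes. TNFRSF10A was the member that was not tested, since it averaged under 1 TPM in both tables. Scaling left the count of called members at 0 in both comparisons, beside 0.0422% of all genes for ZNF683 and 0.0066% for Dox+, and limma's robust setting also gave 0.

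**Figure D1:**
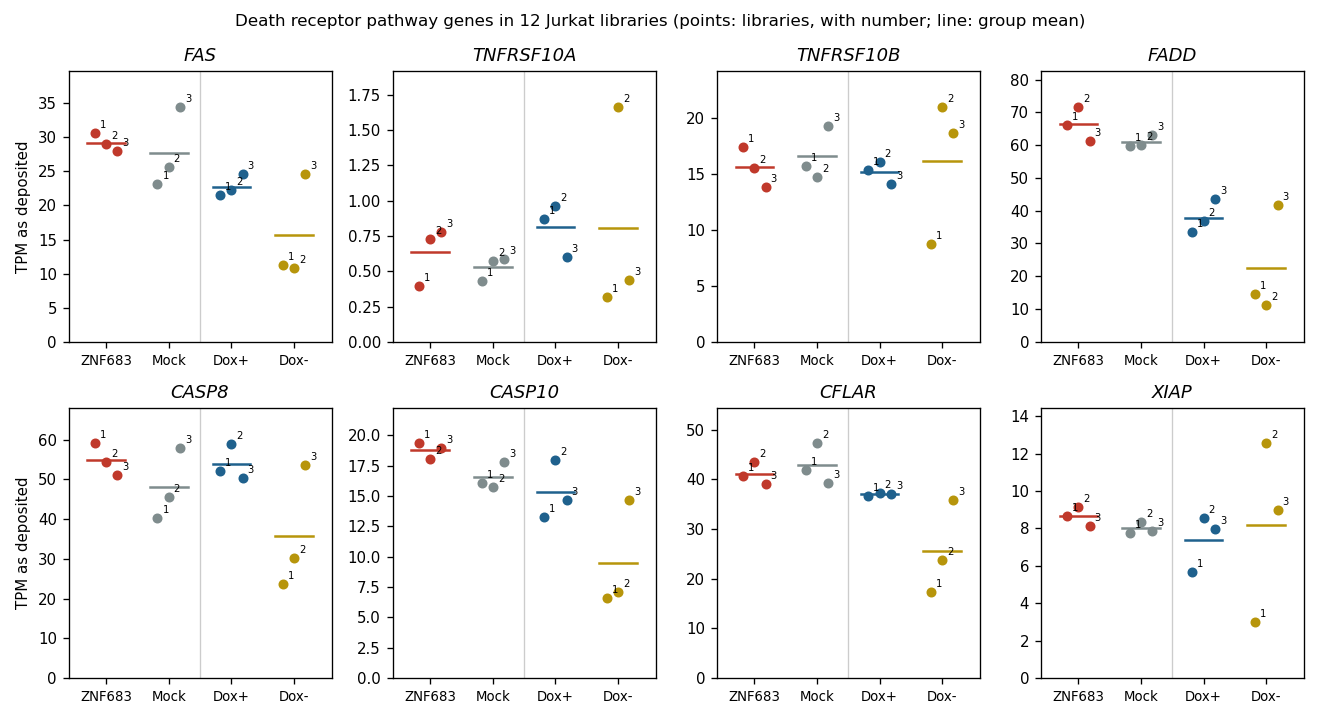
TPM as deposited (vertical axes, from 0) of the 8 genes in the 3 ZNF683, 3 Mock, 3 Dox+ and 3 Dox- libraries. Points are libraries with their replicate number and lines are group means. Dox- libraries 1 and 2 sat below all Dox+ libraries for FAS, FADD, CASP8, CASP10 and CFLAR, while Dox- library 3 sat near them.

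FAS, the receptor for Fas ligand, was expressed in all 12 libraries. It measured 30.6, 29.04 and 28.0 TPM in ZNF683 libraries against 23.2, 25.6 and 34.5 TPM in Mock libraries. The groups overlapped, since Mock library 3 was the highest of the 6. The log2 change was 0.09 ± 0.15 (SE, limma adjusted p = 0.784), with a 95% interval from 0.840-fold to 1.35-fold. Between the doxycycline groups, FAS measured 21.5, 22.3 and 24.6 TPM in Dox+ libraries against 11.3, 10.9 and 24.6 TPM in Dox- libraries. Dox- libraries 1 and 2 were low and Dox- library 3 lay level with the highest Dox+ library. This gave a log2 change of 0.61 ± 0.43 (SE, limma adjusted p = 0.737), and 0.40 ± 0.32 after scaling (adjusted p = 0.688). Scaling brought Dox- library 1 to 19.4 TPM, within the Dox+ range of 18.8 to 23.4 TPM, but left Dox- library 2 at 8.88 TPM. ACTA2, a smooth muscle actin gene that overlaps FAS on the opposite strand, measured 3.21, 3.75 and 3.25 TPM in Dox+ libraries against 1.27, 1.40 and 2.02 TPM in Dox- libraries. Overlap here is of whole gene spans, and shared exons were not examined. Whether counting used strand is not given in the sources used here. Whether reads of 1 overlapping gene were counted for the other is therefore unknown.

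TNFRSF10A, which encodes the TRAIL receptor DR4 (chromosome 8, 23190452 to 23225126, GRCh38), was under 1 TPM in 11 of the 12 libraries. It measured 0.398, 0.725 and 0.777 TPM in ZNF683 libraries against 0.429, 0.573 and 0.583 TPM in Mock libraries. Its doxycycline values were 0.871, 0.964 and 0.602 TPM in Dox+ libraries against 0.315, 1.66 and 0.436 TPM in Dox- libraries. The groups overlapped in both tables, and the value above 1 TPM was that of Dox- library 2. AC100861.1, a transcript on the opposite strand of the same locus, was also highest of its table in Dox- library 2, at 2.07 TPM against 0.319 to 0.923 TPM in the other 5 libraries. At these levels neither direction was distinguishable from the spread, with two-sided exact permutation p-values of 0.6 and 0.9, where 3 libraries against 3 allow no p below 0.1.

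TNFRSF10B, which encodes the other TRAIL receptor, DR5, and lies near TNFRSF10A (chromosome 8, 23020133 to 23069179), was the more abundant TRAIL receptor in every library. Its level was 17.3, 15.5 and 13.8 TPM in ZNF683 libraries against 15.7, 14.7 and 19.3 TPM in Mock libraries, with overlapping groups. Limma gave a log2 change of -0.08 ± 0.14 (SE, limma adjusted p = 0.789). Doxycycline libraries held it at 15.3, 16.1 and 14.1 TPM in the Dox+ group against 8.74, 21.0 and 18.7 TPM in Dox- libraries. Dox- library 1 was the lowest of the 6, and Dox- libraries 2 and 3 were above all Dox+ libraries. The estimated log2 change was -0.0019 ± 0.43 (adjusted p = 0.999). After scaling, the 3 Dox+ libraries stood at 13.4, 14.3 and 13.4 TPM and the 3 Dox- libraries at 14.99, 17.1 and 15.8 TPM, so that the groups lay apart with Dox+ lower, beside 3.72% of all tested genes. The scaled log2 change was -0.21 ± 0.15 (SE, limma adjusted p = 0.688). RHOBTB2, which overlaps TNFRSF10B on the opposite strand, was 3.33, 3.81 and 4.05 TPM in Dox+ libraries against 1.40, 0.651 and 3.87 TPM in Dox- libraries, where library 2 was the lowest.

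FADD, the adaptor between receptor and caspase, had the highest level of the 8 genes in both groups of the first table. It measured 66.2, 71.7 and 61.2 TPM in ZNF683 libraries against 59.6, 60.1 and 63.1 TPM in Mock libraries. ZNF683 library 3 fell inside the Mock range. The log2 change was 0.12 ± 0.10 (SE, limma adjusted p = 0.582), with a 95% interval from 0.926-fold to 1.27-fold. In the doxycycline table FADD measured 33.4, 36.9 and 43.5 TPM in Dox+ libraries against 14.5, 11.3 and 41.7 TPM in Dox- libraries. The Dox- libraries differed among themselves more than the group means did, with libraries 1 and 2 low and library 3 inside the Dox+ range. Its log2 change of 0.94 ± 0.43 had the largest size among the 7 tested genes (95% interval from 1.07-fold to 3.44-fold, unadjusted p = 0.0276, limma adjusted p = 0.737). After scaling it was 0.72 ± 0.45, and the interval from 0.797-fold to 3.42-fold included no change. AP000879.1, an antisense gene that overlaps FADD, measured 16.4, 18.8 and 13.5 TPM in Dox+ libraries against 10.8, 6.55 and 11.9 TPM in Dox- libraries. Those groups lay apart, beside 7.91% of all tested genes with Dox+ higher.

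CASP8, the initiator caspase recruited by FADD, measured 59.2, 54.3 and 51.0 TPM in ZNF683 libraries against 40.4, 45.6 and 58.0 TPM in Mock libraries. Mock library 3 lay inside the ZNF683 range, and the other Mock libraries lay below it. This gave a log2 change of 0.20 ± 0.14 (SE, limma adjusted p = 0.525), with a 95% interval from 0.915-fold to 1.44-fold. CASP8 in the doxycycline table measured 52.1, 58.9 and 50.4 TPM in Dox+ libraries against 23.6, 30.3 and 53.6 TPM in Dox- libraries. Dox- library 3 again lay inside the Dox+ range. Limma gave a log2 change of 0.65 ± 0.43, or 0.43 ± 0.24 after scaling (limma adjusted p = 0.737 and 0.688). After scaling the Dox+ libraries, at 45.6, 52.5 and 48.0 TPM, lay just above the Dox- libraries, at 40.5, 24.8 and 45.4 TPM, beside 9.34% of all tested genes whose Dox+ libraries all lay above the Dox- libraries.

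CASP10, a close relative of CASP8 that is recruited to the same complex, was the 1 member of the 7 tested whose ZNF683 and Mock libraries did not overlap. It measured 19.4, 18.05 and 18.9 TPM in ZNF683 libraries against 16.1, 15.7 and 17.8 TPM in Mock libraries. Every ZNF683 library was above every Mock library, as in 8.71% of all tested genes. The estimated log2 change was 0.17 ± 0.10 (SE, limma adjusted p = 0.457), with a 95% interval from 0.962-fold to 1.32-fold, and 0.22 ± 0.11 after scaling (adjusted p = 0.365), when the groups were still apart, as in 11.8% of all tested genes with ZNF683 higher. In the doxycycline table CASP10 measured 13.2, 17.9 and 14.7 TPM in Dox+ libraries against 6.58, 7.10 and 14.6 TPM in Dox- libraries, again with library 3 alone inside the Dox+ range. The log2 change was 0.71 ± 0.42, or 0.50 ± 0.29 after scaling (limma adjusted p = 0.737 and 0.688).

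CFLAR, the brake on caspase-8 activation, measured 40.7, 43.4 and 39.2 TPM in ZNF683 libraries against 41.9, 47.3 and 39.4 TPM in Mock libraries. The groups overlapped, with Mock library 2 above all ZNF683 libraries. This gave a log2 change of -0.06 ± 0.11 (SE, limma adjusted p = 0.814), with a 95% interval from 0.811-fold to 1.14-fold. For doxycycline, CFLAR measured 36.7, 37.2 and 37.2 TPM in Dox+ libraries against 17.3, 23.8 and 35.8 TPM in Dox- libraries. It was the 1 tested member whose Dox+ libraries all lay above the Dox- libraries as deposited, as did 7.91% of all tested genes, although Dox- library 3 was close. Limma gave a log2 change of 0.57 ± 0.43 (limma adjusted p = 0.737), and 0.35 ± 0.21 after scaling (adjusted p = 0.688). The scaled groups were still apart, beside 9.34% of all tested genes with Dox+ higher. CFLAR-AS1, antisense to CFLAR, measured 3.71, 3.30 and 3.10 TPM in ZNF683 libraries against 4.55, 7.19 and 6.47 TPM in Mock libraries. Those groups lay apart, beside 8.51% of all tested genes with ZNF683 lower.

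XIAP, which blocks executioner caspases, was the lowest of the 7 tested members in the ZNF683, Mock and Dox+ groups and by its mean in Dox- libraries. It measured 8.69, 9.16 and 8.11 TPM in ZNF683 libraries against 7.78, 8.36 and 7.89 TPM in Mock libraries, with a log2 change of 0.10 ± 0.10 (SE, limma adjusted p = 0.666). Under the doxycycline contrast it measured 5.70, 8.54 and 7.99 TPM in Dox+ libraries against 2.99, 12.6 and 8.98 TPM in Dox- libraries. The Dox- libraries included both the lowest and the highest value of that table. The estimated log2 change was 0.03 ± 0.42 (adjusted p = 0.981) and turned to -0.14 ± 0.28 after scaling (adjusted p = 0.815).

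**Figure D2:**
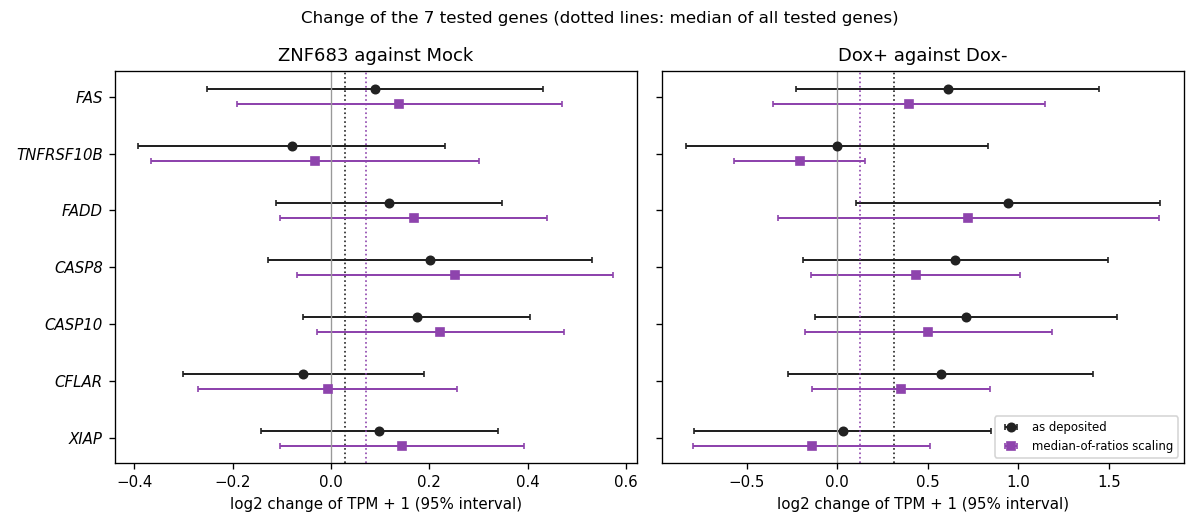
Log2 change of TPM + 1 (horizontal axes) of the 7 tested genes for ZNF683 against Mock and Dox+ against Dox-, with limma's 95% intervals, as deposited (black circles) and after median-of-ratios scaling (purple squares). Dotted lines give the median of all tested genes, 0.03 and 0.32 as deposited and 0.07 and 0.13 after scaling. Every interval crossed 0 except that of FADD in Dox+ against Dox- as deposited.

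The intervals as deposited give the changes in TPM that the limma fit allowed. For ZNF683 against Mock they ran from 0.762-fold for TNFRSF10B at the low end to 1.44-fold for CASP8 at the high end. For Dox+ against Dox- they ran from 0.560-fold for TNFRSF10B to 3.44-fold for FADD. These used the spread typical of a gene's mean level and include the shift of all tested genes (median log2 change 0.32). They do not bound what these libraries could hide for 1 gene. After scaling, where each gene's own spread entered, the Dox+ intervals ran from 0.577-fold for XIAP to 3.42-fold for FADD. The difference between the effects, Dox+ minus Dox- less ZNF683 minus Mock, was tested over all 12 libraries. No member passed (limma adjusted p from 0.876 to 0.977), and 2 of 14468 genes did, a share of 0.0138%. FADD had the difference of largest size, 0.83 ± 0.48 on the log2 scale.

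The order of the levels was read within each group. In ZNF683 libraries the means ran from FADD (66.4 ± 5.29 TPM, SD, n = 3) through CASP8, CFLAR, FAS, CASP10, TNFRSF10B and XIAP down to TNFRSF10A (0.633 ± 0.205 TPM), and no 2 neighbours had overlapping ranges. In Mock libraries FADD also came first (60.9 ± 1.89 TPM), with TNFRSF10B and CASP10 in swapped places and overlapping, and with overlap between CASP8 and CFLAR as well. In Dox+ libraries CASP8 came first (53.8 ± 4.46 TPM) and did not overlap FADD (37.9 ± 5.11 TPM), whereas FADD overlapped CFLAR and CASP10 overlapped TNFRSF10B. Among Dox- libraries all neighbours overlapped except XIAP and TNFRSF10A. The tables were deposited apart with different gene sets, so these orders are compared within a table only.

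TPM ratios within a library do not depend on how libraries are scaled. They are printed as plain TPM ratios and were tested as log2 ratios of TPM + 1, with the result without a pseudocount beside it. CASP8 stood at 1.45, 1.25 and 1.30 times CFLAR in ZNF683 libraries against 0.965, 0.964 and 1.47 times in Mock libraries. Mock libraries 1 and 2 were the 2 of the 12 with less CASP8 than CFLAR, but Mock library 3 had more CASP8 per CFLAR than any ZNF683 library. The mean difference was 0.26 on the log2 scale (two-sided exact permutation p = 0.4, and 0.4 without a pseudocount). The same ratio was 1.42, 1.58 and 1.36 in Dox+ libraries against 1.36, 1.27 and 1.496 in Dox- libraries, a difference of 0.08 (exact p = 0.4, and 0.5 without a pseudocount). CASP10 stood at 0.327, 0.332 and 0.371 times CASP8 in ZNF683 libraries against 0.398, 0.345 and 0.307 times in Mock libraries (exact p = 0.9, and 0.9 without a pseudocount). It was 0.254, 0.305 and 0.291 times CASP8 in Dox+ libraries against 0.279, 0.234 and 0.273 times in Dox- libraries, a difference of 0.06 (exact p = 0.6), or 0.11 without a pseudocount (exact p = 0.4). CASP8 and CASP10 thus kept overlapping ratios in both comparisons.

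The ratio of TNFRSF10B to FAS was added after the values were seen. It was 0.567, 0.536 and 0.494 in ZNF683 libraries against 0.676, 0.575 and 0.559 in Mock libraries (exact permutation p = 0.2, and 0.2 without a pseudocount). Dox+ libraries had 0.712, 0.722 and 0.572 against 0.771, 1.93 and 0.757 in Dox- libraries. The groups lay apart with Dox+ lower, with a difference of -0.61 on the log2 scale, or -0.65 without a pseudocount (exact p = 0.1 for each, the smallest that 3 against 3 allow). Dox- library 2 held more TNFRSF10B than FAS and was alone in that among the 12 libraries. Leaving it out, the difference with the pseudocount was -0.20.

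**Figure D3:**
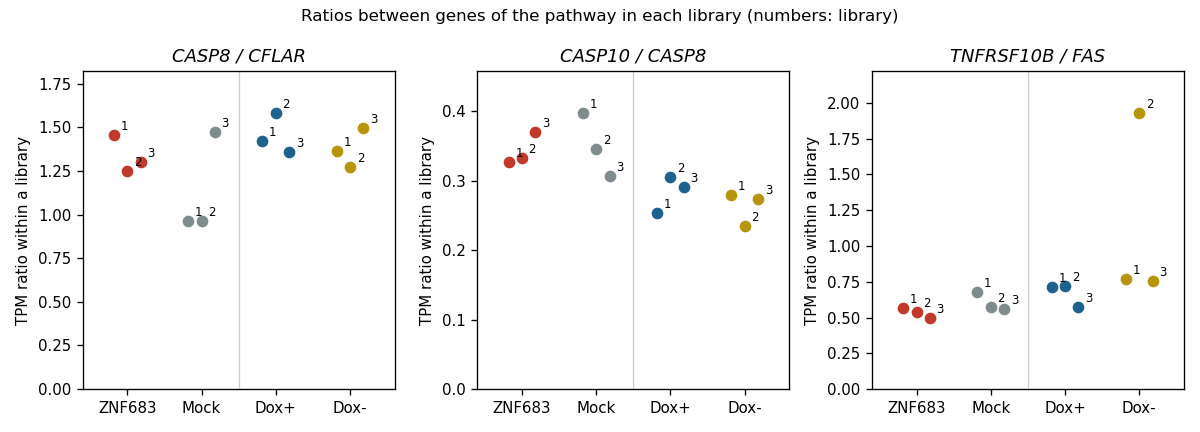
TPM ratios within each library (vertical axes, from 0) of CASP8 to CFLAR, CASP10 to CASP8 and TNFRSF10B to FAS. Points are the 3 libraries of each group with their replicate number. Dox- library 2 stands at 1.93 for TNFRSF10B to FAS, and the other 11 libraries lie between 0.494 and 0.771.

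The doxycycline comparison rested on how the 3 Dox- libraries divided. Fits with libraries left out used TPM as deposited and were not repeated after scaling. In them Dox- library 1, with 50.7% of its TPM in AL135790.1, keeps its lowered values. With Dox- library 3 left out, FAS (log2 change 0.97, limma adjusted p = 0.0342), FADD (1.49, adjusted p = 0.0342), CASP8 (0.98, adjusted p = 0.0352), CASP10 (1.04, adjusted p = 0.0351) and CFLAR (0.83, adjusted p = 0.0482) were called higher in Dox+ libraries. In that fit 2754 of 15127 genes, or 18.2%, were called higher. With the same library left out, the difference between the effects passed for FAS, FADD, CASP10 and CFLAR (adjusted p from 0.0151 to 0.0310), beside 2550 of 14423 genes, or 17.7%. With Dox- libraries 1 and 2 left out instead, an alternative added after seeing the data that keeps 1 Dox- library and assumes that it varies like the Dox+ group, 0 genes, or 0%, were called (545 at an unadjusted p under 0.05). FAS then stood at -0.11, FADD at -0.14, CASP8 at 0.0019, CASP10 at 0.05 and CFLAR at 0.05.

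After scaling, Dox- library 1 lay close to the Dox+ libraries and Dox- library 2 remained apart. On the scaled log2(TPM + 1) scale, Dox- library 2 stood below the mean of the Dox+ libraries for FADD (-1.78), FAS (-1.13), CASP10 (-1.11), CASP8 (-0.95) and CFLAR (-0.75). It stood above that mean for XIAP (0.56), TNFRSF10A (0.45) and TNFRSF10B (0.30). FAS, the adaptor, both caspases and CFLAR were thus low in that library, while both TRAIL receptors and XIAP were not. Over all 15148 tested genes the library's median was -0.28, with quartiles at -0.78 and 0.27, so 4 of the 8 members lay below the lower quartile and 3 above the upper. Dox- library 1 ranged from -0.44 for FADD to 0.12 for TNFRSF10B. DDIT3, which encodes the stress factor CHOP and is known to raise TNFRSF10B, was 3.17 above the Dox+ mean in Dox- library 2, at 171 TPM as deposited, against 12.5 to 22.1 TPM in the other 5 libraries of the table. The scaled sum of the 12 T cell markers was 5379 to 5596 TPM in Dox+ libraries, against 4684, 2162 and 4702 TPM in Dox- libraries. The scaled sum of the 4 B cell markers was 8.48 TPM in Dox- library 2 and 20.9 to 27.2 TPM in the other 5 libraries. Of 3 erythroid markers, 2 were in the table. In Dox- library 2, as in Dox+ libraries 1 and 3 and Dox- library 3, 1 was at or above 1 TPM. The erythroid sum as deposited was 20.2 TPM in Dox- library 2, or 16.5 TPM after scaling, and 0.283 to 1.57 TPM as deposited in the other 5. The scaled myeloid sum was 0.365 TPM in Dox- library 2 and 0.083 to 0.310 TPM in the other 5. For the epithelial markers it was 2.87 TPM against 1.68 to 2.54 TPM. The part of stress genes, cell makeup or RNA quality in the values of Dox- library 2 was not tested. In bulk RNA, fewer cells of a type and less RNA per cell cannot be told apart.

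**Figure D4:**
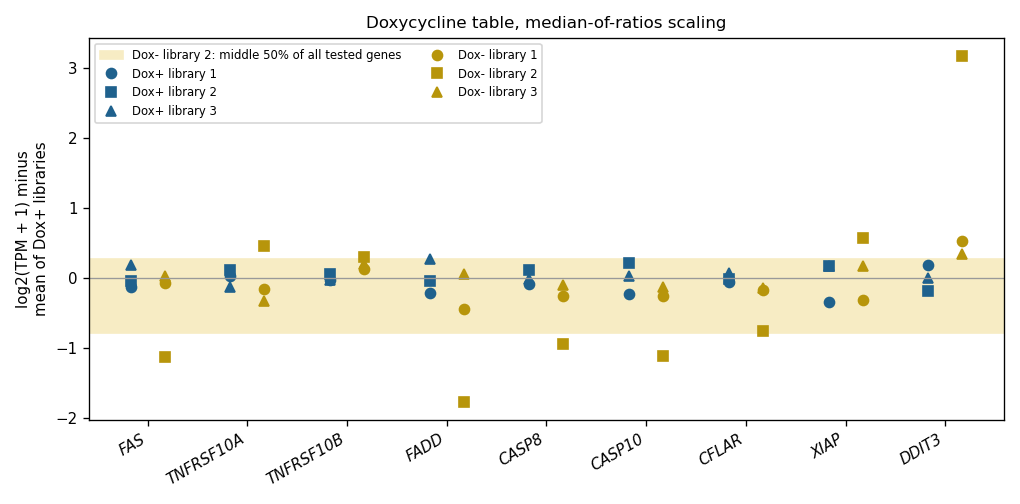
Scaled log2(TPM + 1) of each Dox+ library (blue) and Dox- library (gold) minus the mean of the Dox+ libraries (vertical axis) for the 8 genes and DDIT3. The band runs between the quartiles of all tested genes in Dox- library 2, from -0.78 to 0.27, and that library lies below it for FADD at -1.78 and above it for DDIT3 at 3.17.

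The other genes of the route were described in 6 lists of 48 genes, of which 41 were tested in each comparison. Limma called 0 of the 41 in ZNF683 against Mock, beside 0.0301% of all tested genes, and 11 had an unadjusted p under 0.05, beside 13%. It called 0 of the 41 in Dox+ against Dox-, beside 0.396%, and 6 had an unadjusted p under 0.05, beside 6.34%. After scaling the unadjusted counts were 12 for ZNF683, beside 14.5%, and 2 for Dox+, beside 3.04%. As deposited, 8 of the 41 lay apart with ZNF683 higher and 1 with ZNF683 lower, beside 8.71% and 8.51% of all tested genes, and 6 lay apart with Dox+ higher, beside 7.91%. After scaling, 13 lay apart with ZNF683 higher and 0 with ZNF683 lower, beside 11.8% and 7.24%. For Dox+ the scaled counts were 4 higher and 3 lower, beside 9.34% and 3.72%. As deposited, log2 changes were positive for 30 and negative for 11 of the 41 in ZNF683 against Mock, where 54.9% of all tested genes were positive. In Dox+ against Dox- 35 were positive and 6 negative, where 79.1% of all tested genes were positive. Scaling gave 33 and 8 for ZNF683, beside 61.9% of all genes, and 31 and 10 for Dox+, beside 64.3%. Scaling also moved the Dox+ median log2 changes of the lists given below, to 0.35 for the ligands, 0.15 for the decoy and other receptors, 0.21 for the adaptors and modulators, 0.40 for the executioner and mitochondrial arm and 0.25 for the inhibitors of apoptosis, against 0.13 for all tested genes.

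Among the death ligands, 2 of 5 were tested, with a median log2 change of 0.16 for ZNF683 and 0.53 for Dox+. FASLG, the ligand of Fas, was at most 0.129 TPM in any library. TNFSF10, which encodes TRAIL, measured 8.80, 7.92 and 9.44 TPM in ZNF683 libraries against 7.40, 7.35 and 6.84 TPM in Mock libraries. Its groups lay apart, beside 8.71% of all tested genes with ZNF683 higher, and the log2 change was 0.24 ± 0.11 (SE, limma adjusted p = 0.398). TNFSF10 measured 4.82, 4.92 and 5.05 TPM in Dox+ libraries against 2.54, 3.24 and 4.84 TPM in Dox- libraries, groups that overlapped (adjusted p = 0.741). LTA, which encodes lymphotoxin alpha, had a log2 change of 0.08 for ZNF683 and 0.64 for Dox+ (adjusted p = 0.774 and 0.737). Of the decoy and other death receptors, 3 of 7 were tested, TNFRSF1A, TNFRSF21 and TNFRSF25, and the TRAIL decoys TNFRSF10C and TNFRSF10D were below the limit in both tables. The median log2 change of the 3 was -0.08 for ZNF683 and 0.37 for Dox+. TNFRSF1A, the main TNF receptor, was 37.6 ± 1.52 TPM in ZNF683 libraries and 40.0 ± 2.18 TPM in Mock libraries (SD, n = 3 each).

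All 14 adaptors and modulators of the complex were tested, with a median log2 change of 0.25 for ZNF683 and 0.42 for Dox+, against 0.03 and 0.32 for all tested genes. FAIM, an inhibitor of Fas-induced death, measured 11.1, 12.7 and 12.1 TPM in ZNF683 libraries against 7.49, 8.09 and 11.1 TPM in Mock libraries (log2 change 0.41, limma adjusted p = 0.345). RIPK3, the kinase of necroptosis, was 4.15, 4.37 and 4.28 TPM in ZNF683 libraries against 3.38, 3.47 and 3.10 TPM in Mock libraries (0.29, adjusted p = 0.364). CASP8AP2, which encodes a caspase-8 associated protein, had a log2 change of 0.26 (adjusted p = 0.366). These 3 and FAF1, which encodes a Fas-associated factor, lay apart with ZNF683 higher, 4 of the 14 beside 8.71% of all tested genes. FAF1 was named after its values were seen. In the doxycycline table RIPK1, a kinase of the TNF receptor complex, measured 9.99, 11.1 and 11.4 TPM in Dox+ libraries against 4.37, 1.66 and 11.8 TPM in Dox- libraries (1.05, adjusted p = 0.579). FAIM (0.90) and RIPK3 (0.86) also had Dox- library 2 as their lowest, at 1.91 and 0.810 TPM.

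The 13 genes of the executioner and mitochondrial arm had a median log2 change of 0.27 for ZNF683 and 0.62 for Dox+. As deposited, 2 of the 13 lay apart with ZNF683 higher and 1 with ZNF683 lower, beside 8.71% and 8.51% of all tested genes. After scaling these counts were 6 and 0, beside 11.8% and 7.24%. CASP9, the initiator caspase of the mitochondrial route, measured 6.89, 8.36 and 6.35 TPM in ZNF683 libraries against 4.38, 4.63 and 5.94 TPM in Mock libraries. Its groups lay apart, with a log2 change of 0.46 ± 0.15 (SE, limma adjusted p = 0.327). APAF1, which activates CASP9 in the apoptosome and was named after its values were seen, lay apart in the other direction, at 3.37, 3.05 and 2.86 TPM in ZNF683 libraries against 3.67, 3.69 and 4.48 TPM in Mock libraries (-0.27, adjusted p = 0.406), and overlapped after scaling. The executioner CASP6 had overlapping groups and a log2 change of 0.33 (adjusted p = 0.368). CASP6 measured 43.3, 45.0 and 51.9 TPM in Dox+ libraries against 21.5, 12.3 and 45.2 TPM in Dox- libraries (0.99, adjusted p = 0.715). BID, which links caspase-8 to mitochondria, measured 213, 218 and 263 TPM in Dox+ libraries against 87.9, 85.7 and 235 TPM in Dox- libraries (0.92, adjusted p = 0.737). As deposited, for CASP6 and BID, as for FADD, Dox- library 3 lay inside the Dox+ range and Dox- libraries 1 and 2 far below it. The values of Dox- library 1 are lowered there by AL135790.1. Scaling brought FADD to 24.9 TPM in Dox- library 1 and 9.24 TPM in Dox- library 2, against 29.2 to 41.4 TPM in Dox+ libraries.

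The 5 genes of the inhibitor of apoptosis list had median log2 changes of 0.12 for ZNF683 and 0.47 for Dox+. BIRC6, a very large member of the family, measured 3.59, 4.06 and 5.13 TPM in ZNF683 libraries against 6.95, 6.35 and 4.63 TPM in Mock libraries (-0.40, limma adjusted p = 0.379). XAF1, an antagonist of XIAP, had a log2 change of 0.42 (adjusted p = 0.365), and BIRC2, which encodes cIAP1, had 0.18 (adjusted p = 0.447). BIRC6 was 4.53, 2.97 and 3.30 TPM in Dox+ libraries against 2.48, 20.9 and 4.98 TPM in Dox- libraries, where library 2 was the highest (-0.76, adjusted p = 0.737). XAF1 (0.58) and BIRC5 (0.50), which encodes survivin, did not pass (adjusted p = 0.737 and 0.738). Of 4 stress factors known to act on TNFRSF10B, none passed, and their median log2 change was 0.04 for ZNF683 and -0.17 for Dox+, with 2 positive and 2 negative for Dox+. After scaling the Dox+ median was -0.39, with all 4 negative. DDIT3 was 20.3, 24.0 and 21.7 TPM in ZNF683 libraries against 27.2, 22.2 and 21.9 TPM in Mock libraries (-0.10, adjusted p = 0.699). For Dox+ against Dox- the DDIT3 log2 change was -1.14 (adjusted p = 0.510), and TRIB3 had -0.42 (adjusted p = 0.744).

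**Figure D5:**
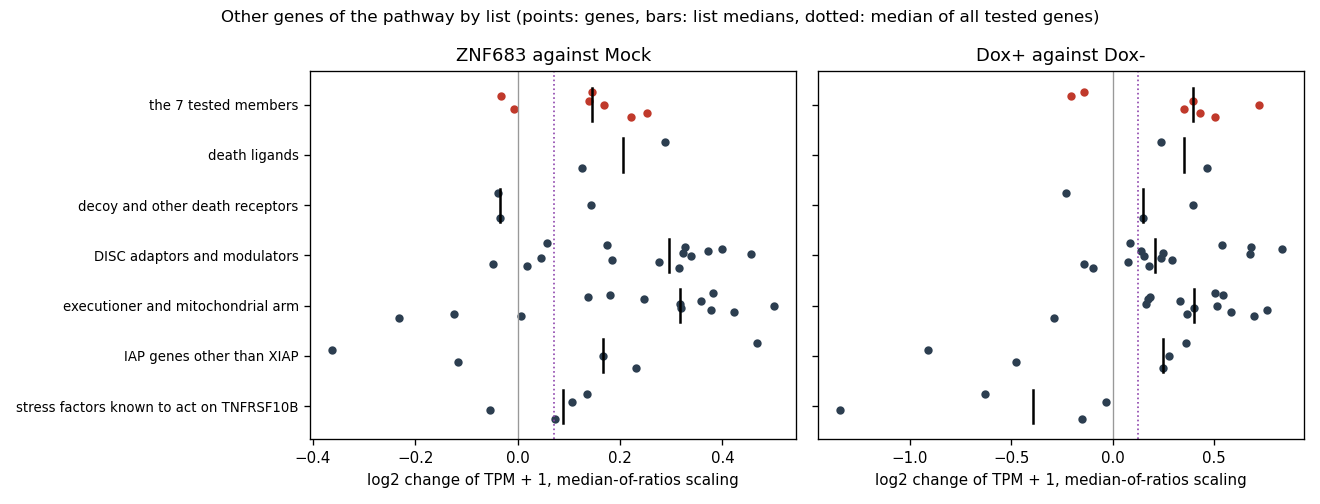
Log2 change of TPM + 1 after median-of-ratios scaling (horizontal axes) of the tested genes, by list, for ZNF683 against Mock and Dox+ against Dox-. Points are genes, red for the 7 members, black bars are list medians and dotted lines the medians of all tested genes (0.07 and 0.13), and the largest negative value, -1.35 in Dox+ against Dox-, is DDIT3.

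Likeness between genes was described over the 12 libraries, scaled and centred within each table. FAS, FADD, CASP8, CASP10 and CFLAR had pairwise Pearson r between 0.74 and 0.94, while XIAP and TNFRSF10B had negative r with each of these 5. Without Dox- library 2, over 11 libraries, the r of the 5 genes ranged from -0.19 to 0.79. XIAP then had positive r with all 5, from 0.40 with FAS to 0.85 with FADD, and TNFRSF10B with all but CFLAR (-0.37). Among 8589 protein-coding candidates averaging at least 5 TPM in both tables, the most alike genes to FADD were TOR2A (r = 0.996) and CYB561D2 (0.994), and DCAF6 (0.987) was among the 2 most alike to FAS. VPS52 (0.987) and NAA40 (0.981) were most alike to CASP8, KIAA0040 (0.983) and ZNF84 (0.983) to CASP10, and GM2A (0.981) and MIEF2 (0.980) to CFLAR. For TNFRSF10B they were FOXJ3 (0.917) and GOLGA1 (0.905), and for XIAP TIAM1 (0.926) and DPF1 (0.922). Without Dox- library 2 the r of these 13 pairs lay between 0.861 and 0.974. The points share libraries and were selected as the highest of many.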

How the data were processed

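The 12 Jurkat libraries were prepared, per the labels' protocols, from Qiagen RNeasy extracts with a NEBNext low-input kit. The authors deposited 2 tables of TPM per gene symbol, which were used as given. DESeq2 1.22.2 and kallisto 0.46.0 appear in the submitters' processing notes without a stated role. Neither a build nor an annotation for the tables is given in the sources used here. TPM keeps no read number, so no counting interval was computed.

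Groups came from genotype labels and replicate numbers from titles. The members and the gene lists were chosen with earlier results of these data known. Within each table, genes averaging at least 1 TPM entered limma 3.58.1 (R 4.3.3) as log2(TPM + 1). The test was two-sided and moderated with a trend on the mean, and p-values were adjusted by Benjamini-Hochberg over all tested genes, with a threshold of 0.05. Changes on this scale understate those of low genes. For the doxycycline table as deposited the prior degrees of freedom were unlimited, so the test used the spread typical of a gene's mean level, while after scaling they were finite and each gene's own spread entered. Median-of-ratios scaling, the difference between effects and ratios with exact permutation tests were computed in the same tables. The fit was tested on simulated data. Alternatives were other pseudocounts, filters, scalings, robust limma, a replicate block, and leaving out each library. Named genes were ZNF683, the 8 members, FASLG, TNFSF10, up to 3 genes per list with the smallest p in each comparison, and the 2 genes most alike to each tested member. Overlapping genes, AL135790.1 and the TRAIL decoys were named after their values were seen. Some genes that the rule names are not reported here. Positions are from GENCODE v29 and upstream sequences from RefSeq.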

Additional observations from a re-analysis of the deposited data

How the results depend on the processing

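The count of called members was 0 in all 15 alternatives for ZNF683 against Mock and in 16 of 17 for Dox+ against Dox-; leaving out Dox- library 3 gave 5. Over the libraries left out in turn, all with TPM as deposited, members called ranged from 0 to 0 and from 0 to 5. Genes called ranged from 0 to 49 and from 0 to 2788. The 5 genes called for ZNF683 became 3 with a pseudocount of 0.1, 0 without a filter, 0 with a minimum of 5 TPM and 8 with robust limma. The 60 genes called for Dox+ became 0 without a filter, 15 with a minimum of 5 TPM, 1 after median-of-ratios scaling, 0 with the most abundant gene left out, 23 with robust limma and 0 without Dox- libraries 1 and 2. Titles number the libraries alike in the groups of a table, but whether same-numbered libraries are pairs is not given in the sources used here. Correlations of same-numbered deviations from the group means ran from -0.25 to 0.07 and from 0.05 to 0.36. After scaling they ran from -0.25 to 0.05 and from 0.02 to 0.38. With group means of 3 libraries, these values cannot decide whether the libraries were paired. A fit with the replicate block called 0 and 34 genes, or 12 and 0 with scaling as well, and 0 members.

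Some signs turned. With each library left out in turn, FAS ran from -0.026 to 0.25, TNFRSF10B from -0.16 to 0.028 and CFLAR from -0.11 to 0.016 for ZNF683, and TNFRSF10B from -0.37 to 0.22 and XIAP from -0.49 to 0.40 for Dox+ (log2). TNFRSF10B for Dox+ was 0.0044 and 0.0014 with pseudocounts of 0.1 and 0.5. XIAP for Dox+ was -0.14 after scaling, -0.14 with block and scaling, and -0.22 with the most abundant gene left out. Without Dox- libraries 1 and 2, FAS was -0.11 and FADD -0.14, against 0.61 and 0.94 with all libraries, and XIAP -0.26. The difference between effects was -0.17 for TNFRSF10B after scaling, and ran from -0.29 to 0.30 for TNFRSF10B and from -0.58 to 0.30 for XIAP with libraries left out. The log2 ratio of CASP10 to CASP8 ran from -0.12 to 0.068 for ZNF683 and from -0.0080 to 0.13 for Dox+. The cause of these shifts was not tested. Unknown depth limits what can be said of TNFRSF10A and FASLG.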
